A study of Mus musculus with 16 samples.

Results

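The mitochondrial ribosomal proteins were described here as the 77 genes whose symbol in the deposited tables begins with Mrpl or Mrps followed by a digit, out of 24341 genes listed. Of these, 48 carry an Mrpl and 29 an Mrps symbol. The choice used names and no measured value, though earlier results of these data were known. All 77 had at least 1 FPKM (fragment counts scaled by transcript length and library size) in at least 2 of the 16 libraries, so all were among the 12954 genes tested, and the quantification status was OK for each of them in each library.

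Mitochondria keep a small genome of their own that codes for core subunits of the respiratory chain, and the mitochondrial ribosome (mitoribosome) is the machine that translates those messages. Its ribosomal RNAs are made inside the organelle, whereas every protein of its small subunit, which reads the message, and of its large subunit, which joins amino acids, is coded in the nucleus and imported. Quiescent muscle stem cells are known for a low mitochondrial content, which grows when they leave quiescence.

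The study sorted cells from muscles of C57BL/6 mice that were 2 to 3 months old, as CD34+ and alpha-7 integrin+ cells that lacked CD31, CD11b, CD45 and Sca-1, a gate for muscle stem cells. Total RNA was sequenced from p53 WT and p53 KO animals in 6 groups: each genotype without suffix (p53WT and p53KO, n = 3 each), with the suffix 3dai (p53WT_3dai and p53KO_3dai, n = 3 each) and with the suffix G2 (p53WT_G2 and p53KO_G2, n = 2 each). What the suffixes stand for is not stated, and the series title speaks of a severe model of Duchenne muscular dystrophy without tying it to a group. The 3dai cells came from the tibialis anterior and the others from hind limb muscles, so a difference of 3dai from another group and a difference between muscles cannot be told apart. The labels give neither the p53 KO allele nor whether replicates are separate animals, and p-values then measure only the spread between these libraries.

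Trp53, the gene of p53, ranged from 6.34 to 12.2 FPKM in p53 KO and from 39.9 to 53.9 in p53 WT cells without suffix, with ranges of 34.9 to 45.7 and 134 to 161 in 3dai and of 16.7 to 19.8 and 59.9 to 71.0 in G2. It was lower in p53 KO without overlap in each state, and whether the counted part is the deleted part is not known. The files hold no read counts and the depth of the libraries is unknown. Mir6236, a small RNA name, took 9.81% and 10.1% of the summed FPKM of p53KO_3dai replicates 2 and 3. It took at most 2.36% in the other libraries. The sum itself was larger in replicates 2 and 3 (605926 and 610627 FPKM) than in replicate 1 (546395). Whether Mir6236 lowers the other FPKM there is therefore not known. The leucocyte gene Csf1r was listed at 0 in all 16 libraries, and the summed macrophage markers stayed at or below 27.4 FPKM and the summed endothelial markers at or below 27.5 FPKM.

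Sequence context is given first for genes picked by their 3dai difference, so a contrast between their promoters is no result. Promoters, taken as 250 bases before to 50 after the start from RefSeq (GRCm38.p6, the sequence of mm10), were matched for 68 of the 77 genes. The promoters of Mrpl34 and Mrpl18 are shown because these genes had the largest rises in 3dai, and that of Mrps6 because it was the gene with a negative difference there in p53 WT. Capitals mark the letters CCGGAAG, the core bound by ETS factors such as GABPA, on either strand. Mrpl34 lies on the plus strand with its window at chr8:71464676-71464975, Mrpl18 on the minus strand at chr17:12916042-12916341 and Mrps6 on the plus strand at chr16:92058086-92058385. Each line reads 5′ to 3′ along the gene.
Mrpl34: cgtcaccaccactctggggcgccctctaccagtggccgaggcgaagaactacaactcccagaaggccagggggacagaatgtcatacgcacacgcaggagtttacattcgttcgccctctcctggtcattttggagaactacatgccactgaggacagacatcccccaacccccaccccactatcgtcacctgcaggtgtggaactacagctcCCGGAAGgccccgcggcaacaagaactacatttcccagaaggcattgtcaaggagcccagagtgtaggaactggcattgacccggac
Mrpl18: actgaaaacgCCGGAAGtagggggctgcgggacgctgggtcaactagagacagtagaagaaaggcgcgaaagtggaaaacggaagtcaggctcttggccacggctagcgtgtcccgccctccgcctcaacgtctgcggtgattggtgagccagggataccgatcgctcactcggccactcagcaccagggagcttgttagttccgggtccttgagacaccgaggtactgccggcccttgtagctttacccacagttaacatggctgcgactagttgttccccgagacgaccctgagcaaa
Mrps6: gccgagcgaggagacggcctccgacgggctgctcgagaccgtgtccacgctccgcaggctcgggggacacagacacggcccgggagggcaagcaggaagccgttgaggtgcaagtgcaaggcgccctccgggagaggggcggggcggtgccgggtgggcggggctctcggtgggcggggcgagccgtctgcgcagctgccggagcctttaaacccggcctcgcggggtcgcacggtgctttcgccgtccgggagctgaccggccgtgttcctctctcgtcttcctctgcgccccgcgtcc

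The ETS letters stand 37 bases before the start of Mrpl34 and 240 bases before that of Mrpl18, and none of the 4 motifs searched was in the Mrps6 window. The motifs were GCGCATGC (NRF1), CCGGAAG (ETS), CACGTG (E-box, bound by MYC) and AAGATGGC (YY1), each on both strands, and at least 1 was in 38 of the 68 windows (55.9%), against 33.2% of the 9799 tested genes with a window and 19.6% of all 27025 windows. The YY1 letters were in 12 windows (17.6%, against 4.76% of tested genes and 2.88% of all). The ETS letters were in 24 windows (35.3%, against 17.99% and 9.12%), and the NRF1 letters in 8 (11.8%, against 5.45% and 2.80%). The E-box was in 5 (7.35%, against 10.4% and 7.24%). The median GC content was 58.2% in the 68 windows and 61.3% in those of tested genes, with a median of 21 CpG in each set. A match is a description of letters and not a bound site.

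The 12 YY1 matches are shown with up to 10 bases on each side, because this motif exceeded its share among tested genes by the widest ratio of the 4. The match is in capitals and each line is read on the strand that carries AAGATGGC, which is the strand of the gene in 8 cases and the opposite strand for Mrpl32, Mrpl36, Mrps11 and Mrps12. In 6 of them (Mrpl35, Mrpl49, Mrps18a, Mrps24, Mrps27 and Mrps7) the ATG inside the capitals is an annotated start codon of the gene in GENCODE M21, so there the letters also code for the first amino acids.
Mrpl32 at chr13:14613262-14613287: tttccgggtaAAGATGGCagagcgcg
Mrpl35 at chr6:71823744-71823771: ggcaggctgcAAGATGGCggcttccatc
Mrpl36 at chr13:73330969-73330996: gccaggaagaAAGATGGCgtaaggtcac
Mrpl37 at chr4:107066823-107066850: tgcacgggcaAAGATGGCggcgtccagg
Mrpl42 at chr10:95501905-95501932: agattgaagcAAGATGGCgagcgcgcgg
Mrpl49 at chr19:6057722-6057749: ttgaggcgccAAGATGGCagcagcggtg
Mrps11 at chr7:78783014-78783041: ggaagacagaAAGATGGCggcgcccgta
Mrps12 at chr7:28742003-28742030: tttccactccAAGATGGCtgcgtccatg
Mrps18a at chr17:46111005-46111032: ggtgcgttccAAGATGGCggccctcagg
Mrps24 at chr11:5707652-5707675: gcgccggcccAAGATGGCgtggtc
Mrps27 at chr13:99344790-99344817: ggtgcgctccAAGATGGCggctcccatg
Mrps7 at chr11:115604148-115604175: gacagcggccAAGATGGCtgcccccgcg

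The genes lie on 17 chromosomes, most on chromosome 11 (10 genes) and chromosome 17 (8 genes). Of the 68 windows, 23 (33.8%) overlapped the window of a gene on the opposite strand, against 17.6% of tested genes. In Mrps11 and Mrpl46 both partners are mitoribosome genes, 1 of each subunit. Their starts lie 42 bases apart on opposite strands of chromosome 7, and the window of Mrps11 on the plus strand (chr7:78782881-78783180) also holds the start of Mrpl46; capitals mark the YY1 letters on the minus strand, which lie outside the window of Mrpl46.
Mrps11: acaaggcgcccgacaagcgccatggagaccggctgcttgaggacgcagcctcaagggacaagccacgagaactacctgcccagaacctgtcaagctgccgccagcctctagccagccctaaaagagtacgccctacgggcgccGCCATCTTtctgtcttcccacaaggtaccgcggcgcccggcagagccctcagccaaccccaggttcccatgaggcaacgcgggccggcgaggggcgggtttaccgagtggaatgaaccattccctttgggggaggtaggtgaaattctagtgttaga

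The levels of the genes spanned a wide range in every group. By the mean over all 6 groups, which weighs the high 3dai levels most, the highest genes were Mrpl33, Mrpl52 and Mrpl12 and the lowest were Mrps36, Mrps25 and Mrps33. Without suffix Mrpl52, a large subunit protein, was highest, with a mean of 152 FPKM in p53WT and 138 in p53KO. Mrpl33, a large subunit protein, was listed at 166, 129 and 78.4 FPKM in p53WT and at 231, 318 and 467 in p53WT_3dai. Mrpl12, a large subunit protein of the stalk that is also known in human cells to bind the mitochondrial RNA polymerase, was at 75.04, 136 and 51.7 FPKM in p53WT and at 310, 271 and 358 in p53WT_3dai. For both genes each 3dai library was above each p53WT library.

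Mrps36 was lowest by this mean, at 0, 2.07 and 0 FPKM in p53WT and 0, 5.38 and 2.69 in p53WT_3dai, and was listed at 0 in 5 of the 16 libraries. Its product is a subunit of the 2-oxoglutarate dehydrogenase complex rather than of the mammalian mitoribosome, despite the symbol. Exact zeros were otherwise few: Mrpl34 had 3, and Mrpl14, Mrpl23 and Mrps33 had 1 each, all with the status OK, and a listed 0 was not read as absence. The median of the 77 group means was 14.3 FPKM in p53WT, 13.3 in p53KO, 30.9 in p53WT_G2, 35.0 in p53KO_G2, 52.5 in p53WT_3dai and 52.98 in p53KO_3dai. The ratio of the upper to the lower quartile of these means was 2.96 in p53WT and 2.19 in p53WT_3dai. In p53KO and p53KO_3dai it was 2.73 and 2.44.

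**Figure D1:**
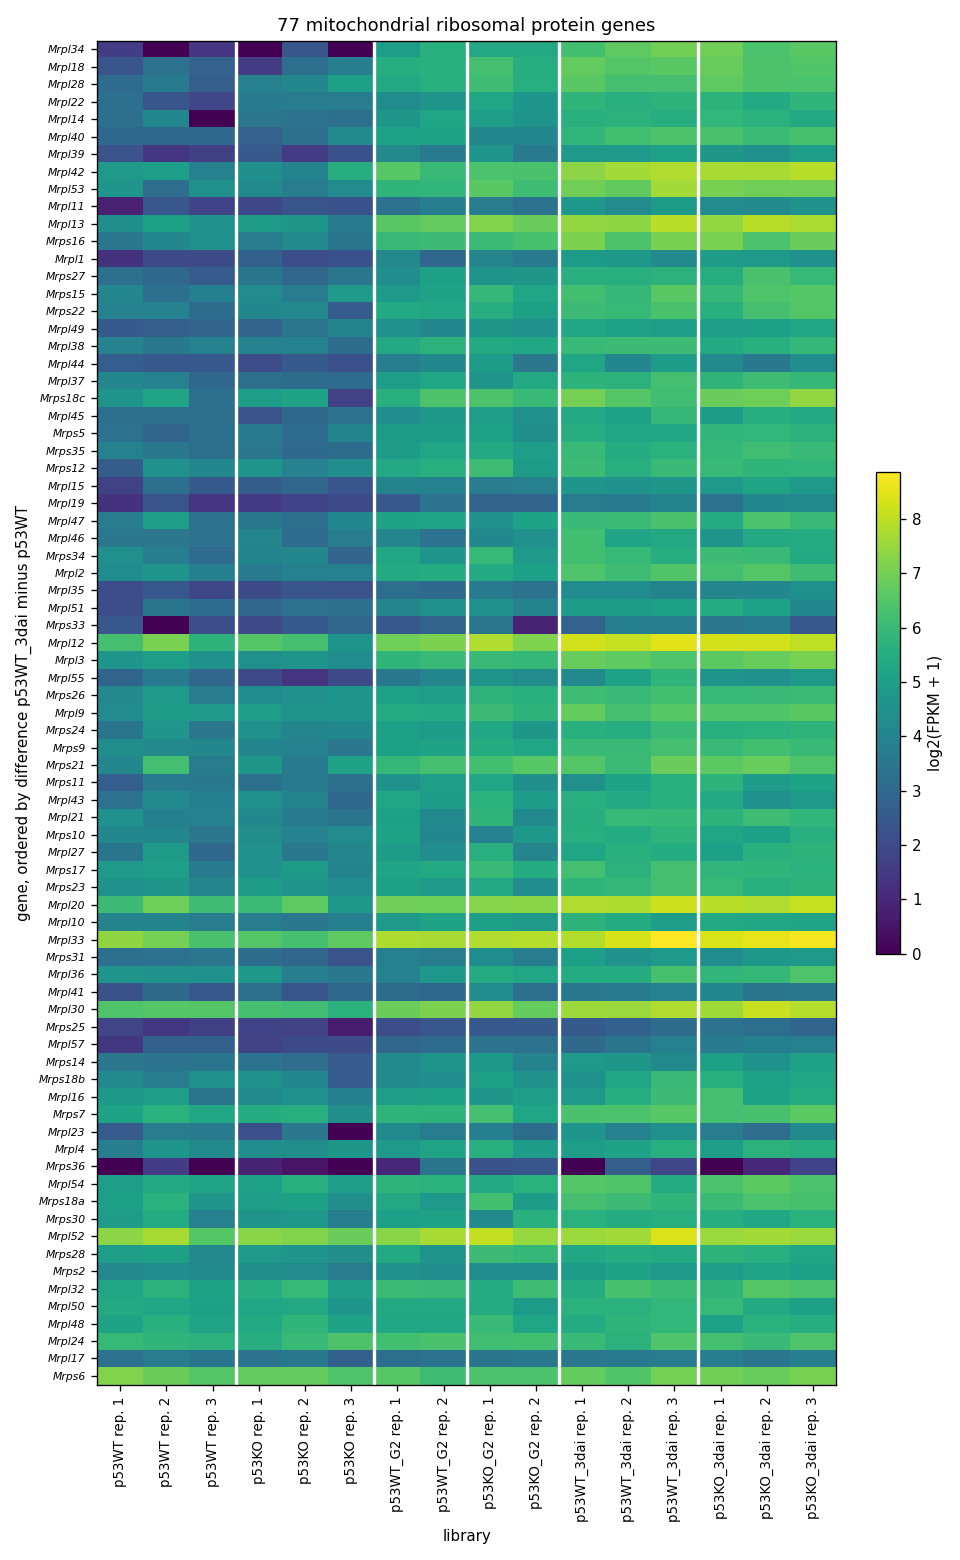
Level of each of the 77 genes (rows, italic) in each of the 16 libraries (columns, grouped by white lines), as log2(FPKM + 1) in colour. Rows are ordered by the difference p53WT_3dai minus p53WT, from Mrpl34 (5.61) to Mrps6 (-0.12). Nearly all rows brighten from the no suffix libraries on the left through G2 to 3dai on the right.

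Mitoribosome genes were higher in 3dai than in the no suffix cells, in both genotypes and in both subunits. In p53 WT 67 of 77 genes rose and 0 fell, and in p53 KO 69 rose and 0 fell (limma's moderated test on log2(FPKM + 1), adjusted p under 0.05 over all 12954 genes). Over all genes tested 31.8% were called higher and 20.9% lower in p53 WT, and 30.4% and 22.7% in p53 KO. The median difference of the 77 genes was 1.87 on the log2(FPKM + 1) scale in p53 WT and 1.85 in p53 KO, beside 0.23 and 0.14 over all genes tested. These differences understate the change of genes with low FPKM. Without p53KO_3dai replicates 2 and 3, in which Mir6236 is high, 59 genes were called with a median of 1.85. That leaves 1 library in its group, which is assumed to vary as the other groups do. In bulk RNA more RNA of a gene per cell and another make-up of the sorted cells cannot be told apart.

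The 77 genes together made up 0.323% to 0.419% of the summed FPKM in p53WT and 0.928% to 0.997% in p53WT_3dai. In p53KO they made up 0.296% to 0.361%, and in p53KO_3dai 0.907% to 0.970%. No 3dai library came near a no suffix library on this measure. By gene, every 3dai library was above every no suffix library for 68 of 77 genes in p53 WT and 69 in p53 KO, where 35.6% and 33.8% of all tested genes were placed so.

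Mrpl34, a large subunit protein with a bacterial counterpart, had the widest difference. It was listed at 2.04, 0 and 1.64 FPKM in p53WT and at 72.5, 100 and 124 in p53WT_3dai. In p53KO it was at 0, 4.14 and 0 FPKM and in p53KO_3dai at 123, 81.1 and 96.3. All 6 libraries of 3dai were far above all 6 of no suffix, and the log2 difference was 5.61 ± 0.54 (SE) in p53 WT (limma, adjusted p = 5.72e-07) and 5.85 ± 0.54 in p53 KO (limma, adjusted p = 3.47e-07).

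Mrpl18, the large subunit protein of the 5S ribosomal RNA binding family, followed in both genotypes. It was at 4.03, 8.86 and 5.91 FPKM in p53WT and at 107, 90.2 and 95.9 in p53WT_3dai, and at 1.95, 8.22 and 12.8 in p53KO and 112, 83.4 and 86.8 in p53KO_3dai. The groups were wide apart, with log2 differences of 3.81 ± 0.42 in p53 WT (limma, adjusted p = 2.14e-06) and 3.71 ± 0.42 in p53 KO (limma, adjusted p = 2.78e-06).

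Mrpl28 and Mrpl22, both large subunit proteins of bacterial origin, completed the 4 largest rises in p53 WT. Mrpl28 went from 7.55, 11.6 and 5.41 FPKM to 96.0, 76.1 and 75.3 (log2 difference 3.23 ± 0.29), and Mrpl22 from 8.43, 4.20 and 2.69 to 54.8, 45.7 and 52.2 (3.20 ± 0.28). In p53 KO Mrpl13 and Mrpl42 came after Mrpl34 and Mrpl18. Mrpl13 went from 27.8, 24.6 and 11.5 FPKM to 173, 240 and 216 (3.31 ± 0.28), and Mrpl42, which has no bacterial counterpart, from 20.5, 14.8 and 44.7 to 210, 207 and 243 (3.14 ± 0.34). All of these rises passed, with groups that did not overlap.

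Sizes were graded rather than uniform. In p53 WT 9 genes rose 8-fold and over on this scale (Mrpl34, Mrpl18, Mrpl28, Mrpl22, Mrpl14, Mrpl40, Mrpl39, Mrpl42 and Mrpl53), 24 rose 4- to 8-fold, and of 30 genes between 2- and 4-fold 29 were called. In p53 KO 5 genes rose 8-fold and over (Mrpl34, Mrpl18, Mrpl13, Mrpl42 and Mrps18c), 29 rose 4- to 8-fold and 30 rose 2- to 4-fold. Mrpl14 is in that class through a listed 0 in p53WT replicate 3, beside 8.40 and 16.6 FPKM in the other p53WT libraries and 44.8 to 50.6 in p53WT_3dai, and its difference was 1.93 without that library. Mrpl34 had 5.11 in p53 WT and 4.28 in p53 KO without the no suffix libraries in which it is listed at 0. All 9 genes of the top class in p53 WT and 4 of the 5 in p53 KO carry an Mrpl symbol, as do 48 of all 77 genes. The shares were not tested against each other.

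**Figure D2:**
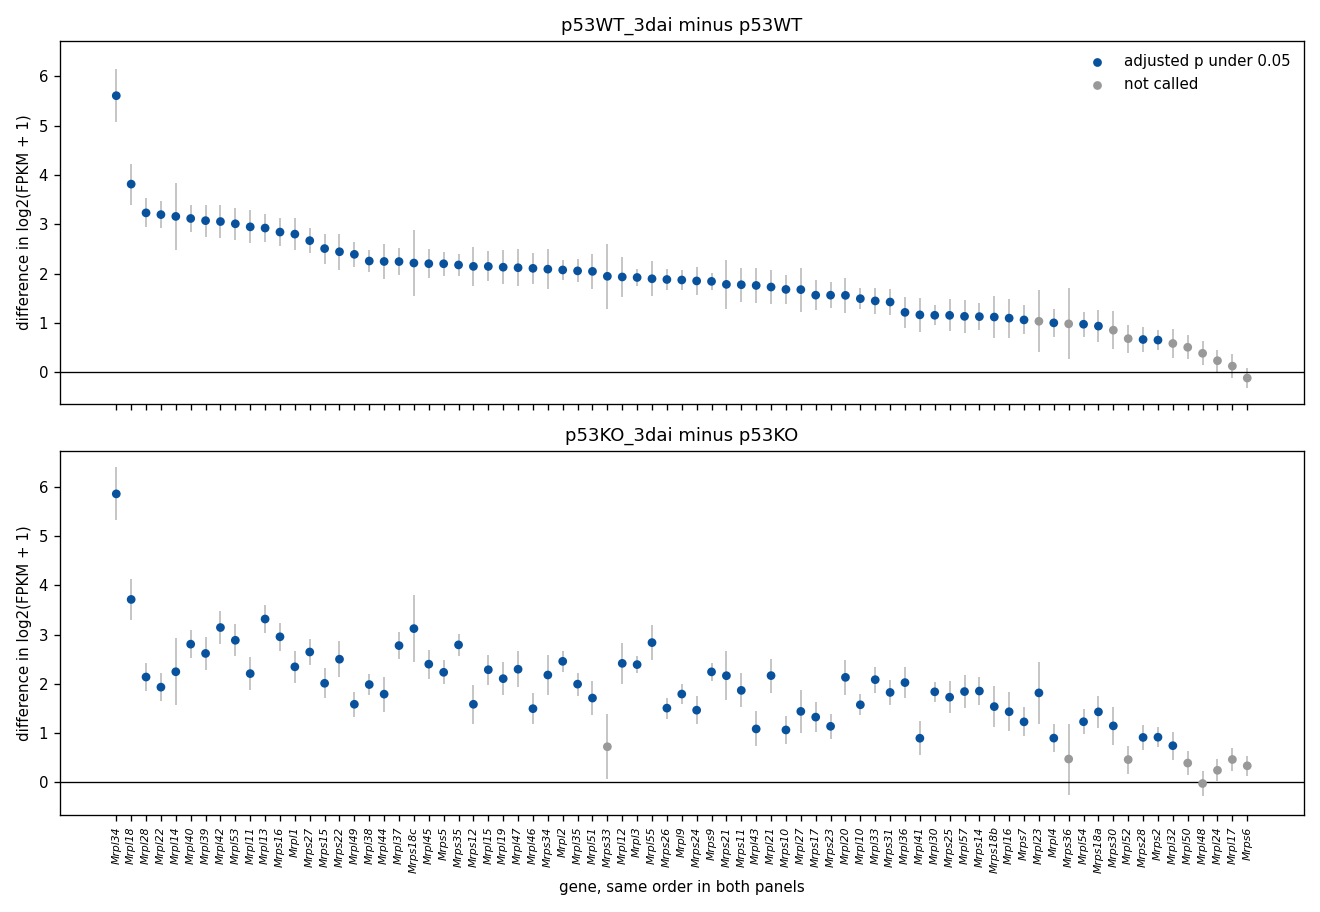
Difference between 3dai and no suffix for each of the 77 genes in log2(FPKM + 1), in p53 WT (top) and p53 KO (bottom), with bars of 1 SE. Blue points passed at an adjusted p under 0.05. Genes are in the same order in both panels, from Mrpl34 (5.61 and 5.85) on the left to Mrps6 (-0.12 and 0.34) on the right.

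By known position, 25 of 26 small subunit proteins rose in p53 WT and 24 of 26 in p53 KO. Of the 50 large subunit proteins, which include Mrps18a and Mrps30 despite their symbols, 42 and 45 rose. Proteins with bacterial counterparts and proteins found only in mitoribosomes had median differences of 1.78 and 1.91 in the small subunit in p53 WT, and of 1.91 and 2.07 in the large subunit. In p53 KO they were 1.72 and 1.78, and 2.12 and 1.65. These classes were not tested against each other.

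Mrps18a, Mrps18b and Mrps18c code for 3 related proteins of which each mitoribosome holds all, Mrps18a in the large and the others in the small subunit. Mrps18c was at 22.8, 35.4 and 8.73 FPKM in p53WT and 129, 91.2 and 69.2 in p53WT_3dai (2.21 ± 0.68, limma, adjusted p = 0.0120). Mrps18a went from 31.3, 50.1 and 23.6 to 74.8, 66.1 and 54.7 (0.93 ± 0.32, limma, adjusted p = 0.0246), and Mrps18b from 17.9, 12.1 and 20.8 to 22.2, 37.1 and 61.3 (1.12 ± 0.42, limma, adjusted p = 0.0368). In p53 KO the differences were 3.12 ± 0.68 for Mrps18c, 1.43 ± 0.32 for Mrps18a and 1.54 ± 0.42 for Mrps18b, and all 3 passed. The values of Mrps18c in p53KO were 29.7, 33.8 and 2.39 FPKM, and without p53KO replicate 3 its difference was 2.03. Each of the 3 calls in p53 WT was lost without some 1 library of p53WT, Mrps18a without replicate 1 or 3 (limma, adjusted p = 0.0642 and 0.119), Mrps18b without replicate 1 or 2 (0.0618 and 0.130) and Mrps18c without replicate 3 (0.0685). Mrps18a was also lost without p53WT_3dai replicate 1 or 2 (limma, adjusted p = 0.0815 and 0.0584) and Mrps18b without 2 or 3 (0.0757 and 0.174). With quantile normalization and median-of-ratios scaling Mrps18a (limma, adjusted p = 0.110 and 0.184) and Mrps18b (0.169 and 0.170) did not pass in p53 WT.

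Of the other proteins with a known role, Mrps12, Mrpl3 and Mrpl12 passed in both genotypes. Mrps12, a protein of the decoding site, rose by 2.14 ± 0.40 and 1.59 ± 0.40 in p53 WT and p53 KO, and Mrpl3, a core large subunit protein, by 1.92 ± 0.18 and 2.39 ± 0.18. Mrpl12 rose by 1.93 ± 0.41 and 2.42 ± 0.41. Mrpl41, a large subunit protein studied in human cells as a partner of p53, was at 3.55, 7.30 and 4.43 FPKM in p53WT and 11.0, 11.7 and 14.0 in p53WT_3dai, and rose by 1.16 ± 0.34 and 0.90 ± 0.34. Under the same other scalings Mrpl41 passed in neither genotype (limma, adjusted p = 0.0581 and 0.0560 in p53 WT, 0.0996 and 0.147 in p53 KO). In p53 KO it was also lost without p53KO replicate 2 or 3 (limma, adjusted p = 0.165 and 0.0516) or p53KO_3dai replicate 1 or 3 (0.135 and 0.0568). Mrps30, a large subunit protein also known as a cell death factor, differed by 0.85 ± 0.38 in p53 WT, which did not pass (limma, adjusted p = 0.0734), and rose by 1.15 ± 0.38 in p53 KO (limma, adjusted p = 0.0194). That call was lost without p53KO replicate 3 (limma, adjusted p = 0.0910) or p53KO_3dai replicate 3 (0.0608) and under both other scalings (0.0748 and 0.0793).

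Both genes of the pair with starts 42 bases apart rose. Mrps11, of the small subunit, was at 5.30, 11.5 and 11.1 FPKM in p53WT and 21.1, 34.2 and 48.0 in p53WT_3dai, and its differences were 1.77 ± 0.35 and 1.87 ± 0.35 in p53 WT and p53 KO. Mrpl46, of the large subunit, was at 10.5, 10.5 and 9.17 FPKM in p53WT and 71.5, 34.9 and 40.3 in p53WT_3dai, with differences of 2.11 ± 0.32 and 1.50 ± 0.32. All 4 differences passed. Over the 12 genes with the YY1 letters the median difference was 1.95 in p53 WT, beside 1.81 over the 56 without them, and in p53 KO it was 1.73 beside 1.84. For the ETS letters it was 1.90 beside 1.81 in p53 WT and 1.89 beside 1.83 in p53 KO. For the NRF1 letters (8 genes) it was 1.47 beside 1.86 in p53 WT and 1.68 beside 1.85 in p53 KO. For the E-box (5 genes) it was 2.07 beside 1.84 and 2.46 beside 1.82.

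Some genes did not pass, which does not show that they were unchanged. Mrpl17, Mrpl24, Mrpl48, Mrpl50, Mrpl52, Mrps36 and Mrps6 passed in neither genotype, whereas 66 genes passed in both. Mrps33 passed only in p53 WT and Mrpl23, Mrpl32 and Mrps30 only in p53 KO. Mrps33 is listed at 0 in p53WT replicate 2, and its p53 WT difference was 1.19 without that library and 1.94 with it. Mrpl23 is listed at 0 in p53KO replicate 3, and its p53 KO difference was 0.87 without that library and 1.82 with it. Mrps6, a small subunit protein with a bacterial counterpart, was at 144, 117 and 89.8 FPKM in p53WT and at 107, 86.2 and 128 in p53WT_3dai (-0.12 ± 0.20, limma, adjusted p = 0.642). In p53KO it was at 105, 106 and 84.1 FPKM and in p53KO_3dai at 125, 112 and 135 (0.34 ± 0.20, limma, adjusted p = 0.173). The groups overlapped in p53 WT, and in p53 KO each 3dai library was above each no suffix library. By group mean it was among the 5 highest of the 77 genes in p53WT and was not among the 5 highest in p53WT_3dai.

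Mrpl48, a large subunit protein found only in mitoribosomes, was at 34.0, 48.7 and 35.3 FPKM in p53WT and 42.7, 54.0 and 57.1 in p53WT_3dai, and at 41.5, 55.0 and 33.8 in p53KO and 33.0, 49.2 and 45.2 in p53KO_3dai. The groups overlapped in both genotypes (0.38 ± 0.25 and -0.02 ± 0.25, limma, adjusted p = 0.210 and 0.954). Exons of Mrps6 overlap those of Slc5a3 on the same strand and those of Mrpl48 overlap Rab6a on the opposite strand, as 17 of the 77 genes overlap another coding gene, 15 of them on the opposite strand. Genes with large rises are also among the 17, such as Mrpl18 (with Tcp1) and Mrpl13 (with Mtbp) on the opposite strand. Mrpl53 overlaps Gm42688 on the same strand. The sources used here do not say how reads shared between such genes were counted.

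**Figure D3:**
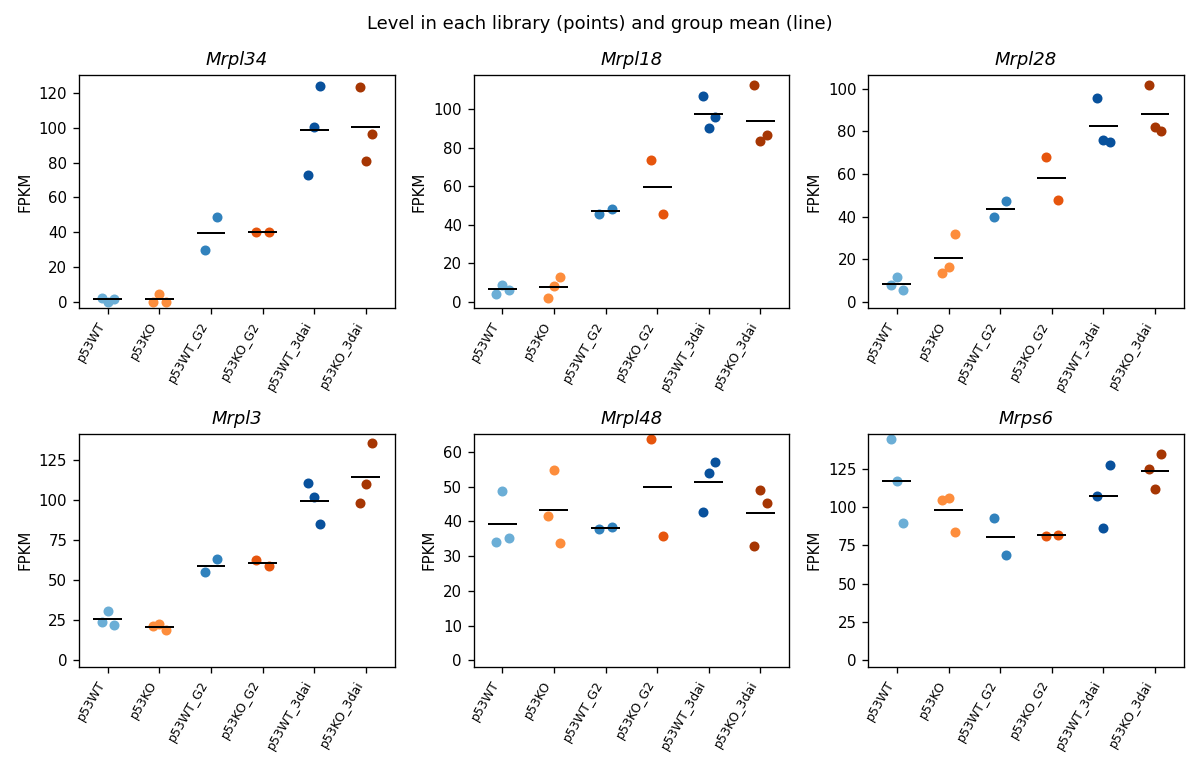
FPKM of 6 genes in each library (points) and the mean of each group (line), on linear axes that start at 0. Mrpl34, Mrpl18, Mrpl28 and Mrpl3 step up from no suffix through G2 to 3dai, whereas no suffix and 3dai overlap for Mrpl48 in both genotypes and for Mrps6 in p53 WT.

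Genes that were high without suffix had smaller median differences. To keep level and difference apart, the genes were ranked by their no suffix level in the other genotype. The p53 WT difference then had a median of 1.30 over the 26 highest genes, 2.09 over the middle 25 and 2.09 over the 26 lowest. For p53 KO these medians were 1.43, 1.82 and 2.12. The pseudocount of 1 lowers the differences of the lowest genes most.

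In G2 the mitoribosome genes were also higher than in the no suffix cells, by less. In p53 WT 39 of 77 genes rose and in p53 KO 49, and 0 fell in either (limma, adjusted p under 0.05), where 22.1% of all tested genes were called higher and 5.39% lower in p53 WT and 22.5% and 7.06% in p53 KO. The median differences were 1.05 and 1.30, beside 0.33 and 0.31 over all genes. The genes made up 0.628% and 0.629% of the summed FPKM in p53WT_G2 and 0.757% and 0.643% in p53KO_G2. Every G2 library was above every no suffix library for 56 and 59 genes, where 41% and 37.4% of all tested genes were placed so.

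Mrpl34 led again, at 29.7 and 48.9 FPKM in p53WT_G2 (4.29 ± 0.60 against p53WT, limma, adjusted p = 0.000100) and 40.2 and 39.9 in p53KO_G2 (4.57 ± 0.60, limma, adjusted p = 5.50e-05). Mrpl18 was at 45.6 and 48.4 FPKM in p53WT_G2 and 73.5 and 45.6 in p53KO_G2, with differences of 2.78 ± 0.47 and 3.03 ± 0.47 that both passed. In p53 WT the next were Mrpl14 (2.51 ± 0.76), which rests on a listed 0 in p53WT replicate 3, and Mrpl28 (2.33 ± 0.33). Without that library the difference of Mrpl14 was 1.28 (limma, adjusted p = 0.00764). It did not pass without p53WT_G2 replicate 1 or 2 (limma, adjusted p = 0.0688 and 0.155) or under either other scaling (limma, adjusted p = 0.0502 with quantile normalization and 0.0542 with median-of-ratios scaling). In p53 KO the next were Mrpl55 (2.65 ± 0.39) and Mrpl13 (2.62 ± 0.32), both large subunit proteins.

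The genes with a negative difference in G2 were few, and none passed. In p53 WT they were Mrps6 (-0.52 ± 0.22), Mrpl17 (-0.24 ± 0.27), Mrpl36 (-0.21 ± 0.35), Mrps18a (-0.05 ± 0.36) and Mrpl48 (-0.03 ± 0.28), and in p53 KO Mrps33 (-0.31 ± 0.74) and Mrps6 (-0.26 ± 0.22). Mrps6 was at 92.9 and 68.6 FPKM in p53WT_G2 and 81.3 and 81.9 in p53KO_G2. Each p53KO_G2 library was below each p53KO library for this gene. With median-of-ratios scaling Mrps6 was called lower in p53WT_3dai (-0.52), p53WT_G2 (-0.95) and p53KO_G2 (-0.69), each against its no suffix group, and with quantile normalization in p53WT_G2 (-0.64).

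The G2 counts rest on groups of 2. Without p53WT_G2 replicate 2 the p53 WT count was 23, and without p53KO_G2 replicate 1 the p53 KO count was 22, each with the 1 library left assumed to vary as the other groups do. Across the 77 genes the mean log2(FPKM + 1) of p53KO_G2 replicate 1 was 5.25, above the 4.88 to 4.96 of the other 3 G2 libraries.

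Against 3dai the G2 cells had lower levels. In p53 WT 19 of 77 genes were called lower and 0 higher, and in p53 KO 14 and 0, where 6.7% of all tested genes were called lower and 13.9% higher in p53 WT and 7.1% and 16.1% in p53 KO. The median differences, G2 minus 3dai, were -0.79 and -0.67, beside 0.09 and 0.12 over all genes. The 3dai and G2 comparisons with no suffix share the no suffix libraries. Without p53KO_3dai replicates 2 and 3 the p53 KO count was 1, and it was 5 without p53KO_G2 replicate 2 and 6 and 7 without p53KO_3dai replicate 2 or 3. In p53 WT it was 8 and 6 without p53WT_G2 replicate 1 or 2 and 10 without p53WT_3dai replicate 3.

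Mrpl46 was at 15.6 and 9.48 FPKM in p53WT_G2 against 71.5, 34.9 and 40.3 in p53WT_3dai (-1.85 ± 0.36, limma, adjusted p = 0.00201). Mrpl36, a large subunit protein of bacterial origin, was at 14.2 and 25.6 against 43.2, 44.2 and 77.01 (-1.42 ± 0.35, limma, adjusted p = 0.00939). Mrpl42 (-1.31 ± 0.37) and Mrpl53 (-1.27 ± 0.36), both found only in mitoribosomes, were the other leading falls in p53 WT. In p53 KO Mrpl40 led, at 15.9 and 16.3 FPKM in p53KO_G2 against 78.3, 64.8 and 77.2 in p53KO_3dai (-2.12 ± 0.31, limma, adjusted p = 0.000272), followed by Mrpl42 (-1.43 ± 0.37), Mrps27 (-1.29 ± 0.29), a small subunit protein that binds RNA, and Mrpl15 (-1.11 ± 0.34). Of these calls Mrpl46, Mrpl40 and Mrps27 held without any 1 library. Mrpl36 was lost without p53WT_G2 replicate 1 (limma, adjusted p = 0.148). Mrpl42 in p53 WT was lost without p53WT_3dai replicate 2 or 3 or p53WT_G2 replicate 2 (limma, adjusted p = 0.0519, 0.0677 and 0.201), and in p53 KO without p53KO_G2 replicate 1 or 2 (0.0583 and 0.0773). Mrpl53 was lost without p53WT_3dai replicate 3 or p53WT_G2 replicate 1 or 2 (limma, adjusted p = 0.0868, 0.115 and 0.110). Mrpl15 was lost without p53KO_3dai replicate 2 or 3 or p53KO_G2 replicate 1 or 2 (limma, adjusted p = 0.0969, 0.0570, 0.121 and 0.0995).

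The order of the 3 states was shared by most genes. The group means rose from no suffix through G2 to 3dai for 69 of 77 genes in p53 WT and 68 in p53 KO, against 33.88% and 31.002% of all tested genes. For 45 and 40 genes the libraries themselves were in this order without overlap. The share of all tested genes in that stricter order is not given here, so these counts are not read as a result. The exceptions in p53 WT were Mrpl17, Mrpl24, Mrpl32, Mrpl36, Mrpl48, Mrps18a, Mrps36 and Mrps6. In p53 KO they were Mrpl41, Mrpl43, Mrpl44, Mrpl48, Mrpl52, Mrps17, Mrps28, Mrps36 and Mrps6.

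Between the genotypes 0 of 77 genes passed in any state (limma, adjusted p under 0.05). Of all tested genes 0.00772% passed without suffix, 0.0849% in 3dai and 0.0695% in G2. At an unadjusted p under 0.05 there were 8 genes without suffix, 0 in 3dai and 4 in G2, where 3.95%, 8.89% and 4.87% of all tested genes lay below that limit. The median differences, p53KO minus p53WT, were -0.09, 0.01 and 0.15, beside 0.01, -0.02 and -0.01 over all genes. A difference that did not pass is not shown to be absent.

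Without suffix the largest differences were on the large subunit. Mrpl22 had 8.43, 4.20 and 2.69 FPKM in p53WT, and in p53KO it had 11.8, 12.3 and 12.5 (1.22 ± 0.28, limma, unadjusted p = 0.000542, adjusted p = 0.710). Mrpl28 was at 13.6, 16.0 and 31.7 against 7.55, 11.6 and 5.41 (1.19 ± 0.29, limma, adjusted p = 0.720). Mrpl55 went the other way, at 2.85, 1.55 and 3.12 in p53KO against 6.23, 11.4 and 6.65 in p53WT (-1.36 ± 0.35, limma, adjusted p = 0.720). For these 3 genes the libraries of the genotypes did not overlap.

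The remaining largest differences without suffix were Mrps33 (0.97 ± 0.66), Mrpl12 (-0.57 ± 0.41) and Mrpl23 (-1.41 ± 0.63), each with overlapping libraries. These rest on 1 library each: Mrps33 was 0.21 without p53WT replicate 2, where it is listed at 0, Mrpl23 was -0.46 without p53KO replicate 3, where it is listed at 0, and Mrpl12 was 0.025 without p53KO replicate 3. In all, every p53KO library was above every p53WT library for 3 genes (Mrpl1, Mrpl22 and Mrpl28) and below for 5 (Mrpl30, Mrpl55, Mrps14, Mrps31 and Mrps9), where 3.99% and 2.74% of all tested genes were placed so. In 3dai this held for 2 genes above (Mrpl15 and Mrps5) and 2 below (Mrpl38 and Mrpl43), against 5.07% and 6.91%. The largest differences there were Mrps18c (0.50 ± 0.68), Mrps5 (0.47 ± 0.24), Mrps25 (0.34 ± 0.32), Mrpl23 (-0.62 ± 0.63), Mrpl43 (-0.65 ± 0.36) and Mrpl44 (-0.70 ± 0.35). With 1 library left out they came as near to 0 as 0.29 for Mrps18c, 0.40 for Mrps5, 0.20 for Mrps25, -0.36 for Mrpl23, -0.47 for Mrpl43 and -0.46 for Mrpl44.

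In G2 both p53KO libraries were above both p53WT libraries for 23 genes and below for 4 (Mrpl15, Mrpl16, Mrpl40 and Mrpl54), where 15% and 16.1% of all tested genes were placed so. Without p53KO_G2 replicate 1, whose mean over the 77 genes is the highest of the 4 G2 libraries, the median difference was -0.011 in place of 0.15. Mrps28, a small subunit protein, was at 67.1 and 58.5 FPKM in p53KO_G2 against 40.7 and 22.9 in p53WT_G2 (1.01 ± 0.31, limma, adjusted p = 0.703), and the difference was 0.61 without p53WT_G2 replicate 2. Mrpl40 was at 15.9 and 16.3 against 32.9 and 34.4 (-1.02 ± 0.34, limma, adjusted p = 0.774), a difference that stayed at or below -0.99 without any 1 of the 4 libraries.

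The other large differences in G2 were Mrpl36 (1.00 ± 0.38), Mrpl41 (0.73 ± 0.42), Mrps33 (-0.48 ± 0.81) and Mrpl23 (-0.49 ± 0.77). They varied with single libraries: Mrpl36 was 0.59 without p53WT_G2 replicate 1 and Mrpl41 0.14 without p53KO_G2 replicate 1, while without p53KO_G2 replicate 2 Mrps33 was 0.81 and Mrpl23 -0.14. Whether the change with 3dai or G2 differed between genotypes was tested as an interaction, and 0 of 77 genes passed in either. Of all tested genes 0% passed for 3dai and 0.0232% for G2. At an unadjusted p under 0.05 there were 4 and 5 of the 77 genes, against 6% and 4.35% of all tested genes. The largest interactions with 3dai were Mrpl55 (0.94 ± 0.49), Mrps18c (0.91 ± 0.96), Mrps33 (-1.22 ± 0.94) and Mrpl22 (-1.26 ± 0.40), and with G2 Mrpl55 (1.97 ± 0.55), Mrpl36 (1.51 ± 0.49), Mrpl40 (-1.41 ± 0.44) and Mrps33 (-1.45 ± 1.05). With 1 library left out, those with 3dai came down to 0.54 for Mrpl55, -0.18 for Mrps18c, -0.46 for Mrps33 and -0.95 for Mrpl22, and those with G2 to 1.71, 1.11, -1.01 and -0.16 in the order given.

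**Figure D4:**
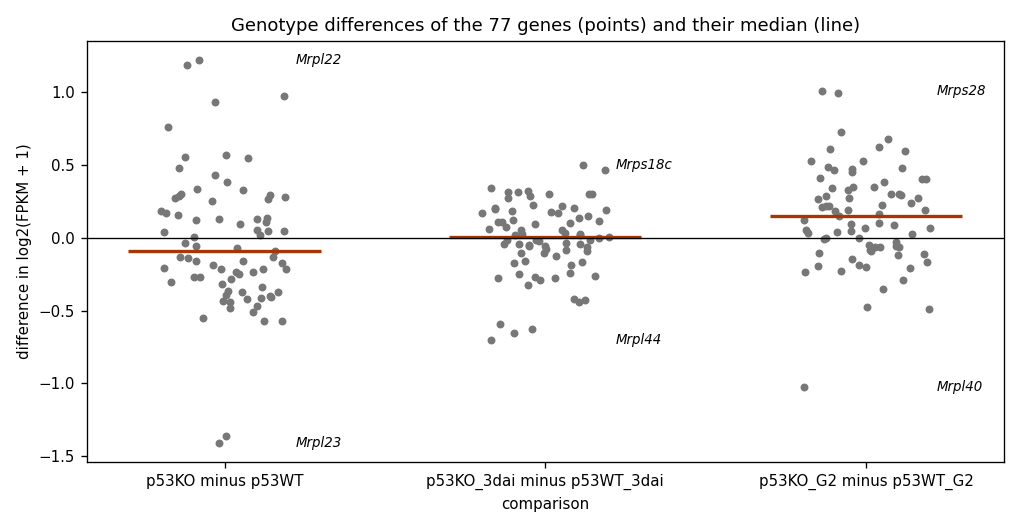
Difference between the genotypes for each of the 77 genes in log2(FPKM + 1), without suffix, in 3dai and in G2 (points, spread sideways for sight), with the median as a line (-0.09, 0.01 and 0.15). The genes at the ends are named, and no point passed at an adjusted p under 0.05.

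Other genes of mitochondrial translation are read against the 31.8% of all tested genes called higher in 3dai in p53 WT and the 30.4% in p53 KO. All 6 mitoribosome proteins with other symbols, Dap3, Ptcd3, Aurkaip1, Chchd1, Gadd45gip1 and Ict1, rose in 3dai in both genotypes, with medians of 1.91 and 2.34. Of 15 translation factors 10 rose in p53 WT and 11 in p53 KO and 0 fell, led in p53 WT by Tsfm (3.70 ± 0.40), the exchange factor of the mitochondrial elongation factor. Taco1, an activator of cytochrome oxidase translation, is listed at 0 for p53WT in each of 3 libraries, and p53WT_3dai had 9.65, 14.6 and 6.39 FPKM. Of 19 aminoacyl-tRNA synthetases 13 and 14 rose and 0 fell, led in p53 WT by Rars2 (2.64 ± 0.50) and Tars2 (2.56 ± 0.29), and Gars and Kars on this list also serve the cytosol. Of 26 assembly factors 17 and 12 rose and 0 fell, led in p53 WT by Mettl17 (2.89 ± 0.44) and Mpv17l2 (2.74 ± 0.47). In p53 KO 6 of the 26 had a difference below 0.

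Regulators of mitochondrial transcription and biogenesis were mixed. Of 13 genes 6 rose and 2 fell in each genotype. Among the factors of the searched motifs, Nrf1 was called higher in both genotypes (0.82 ± 0.33 in p53 WT and 1.01 ± 0.33 in p53 KO). Yy1 was called higher only in p53 WT (0.53 ± 0.18) and Gabpa only in p53 KO (0.49 ± 0.19), while Myc fell. Ppargc1a was called in neither genotype (-0.14 ± 0.37 and -0.11 ± 0.37). Esrra, a nuclear receptor of energy metabolism, was at 4.43, 5.65 and 2.78 FPKM in p53WT and 31.2, 18.6 and 33.5 in p53WT_3dai (2.44 ± 0.41). Ppargc1b, a coactivator of the PGC-1 family, went from 0.406, 0.444 and 0 to 5.19, 4.77 and 6.72 (2.36 ± 0.31). Myc, whose product binds the E-box, was at 351, 365 and 414 FPKM in p53WT and 73.1, 74.7 and 58.7 in p53WT_3dai (-2.44 ± 0.36), and Pprc1 fell by 1.00 ± 0.26.

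In G2 the background was 22.1% of all tested genes called higher in p53 WT and 22.5% in p53 KO. Of the 15 translation factors 10 and 7 were called higher and of the 19 synthetases 9 in each genotype, with 0 lower. The 7 and 4 called higher of the 26 assembly factors, and the 3 and 4 of the 13 regulators, lie near or below the background and are no result about these lists. Between the genotypes 0 genes of these lists passed in any state. Genes coded in mitochondrial DNA were not analysed here.

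Set beside other gene groups, the mitoribosome genes had a larger median than either of the following in 3dai. Of 81 nuclear subunits of oxidative phosphorylation, the complexes that hold the mitoribosome's products, 64 rose and 2 fell in p53 WT (median 1.50), and 66 rose and 3 fell in p53 KO (median 1.62). Of 84 cytosolic ribosomal proteins 40 and 31 rose and 0 fell, with medians of 0.53 and 0.44. Of all tested genes 31.8% and 30.4% were called higher and 20.9% and 22.7% lower in p53 WT and p53 KO. The 31 cytosolic genes in p53 KO lie near that share and are no result about this list. In G2 50 and 59 of the oxidative phosphorylation genes rose (medians 1.16 and 1.25), whereas 3 and 4 of the cytosolic ribosomal proteins did (medians 0.02 and 0.04). These cytosolic counts lie below the 22.1% and 22.5% of all tested genes called higher in G2. These lists were not tested against each other.

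**Figure D5:**
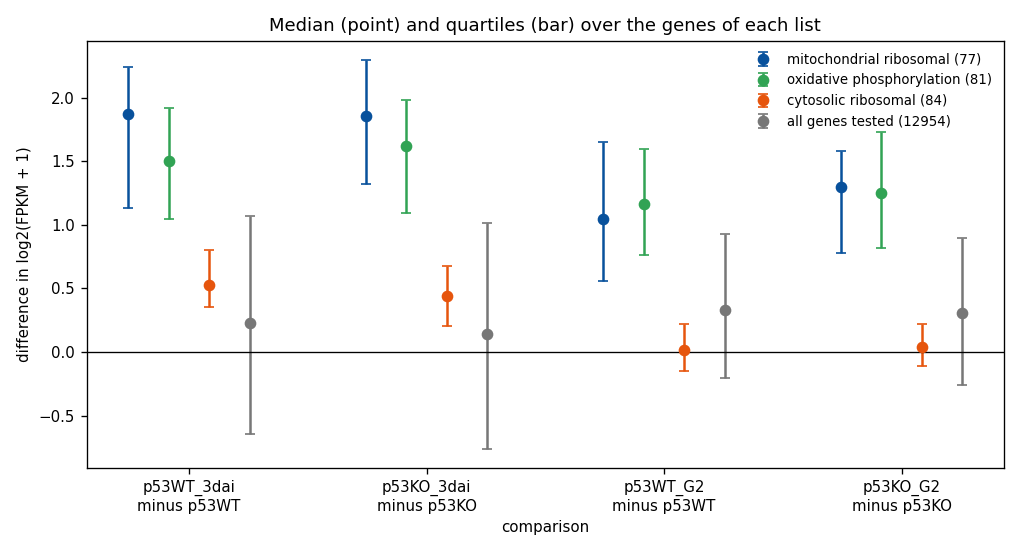
Median difference (points) and quartiles over genes (bars) in log2(FPKM + 1) for 4 gene lists in 4 comparisons with no suffix. The mitoribosome genes (blue) have medians of 1.87, 1.85, 1.05 and 1.30, and the cytosolic ribosomal proteins (orange) 0.53, 0.44, 0.02 and 0.04.

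Markers of other states and cells moved with the same comparisons. Summed over 10 genes, markers of dividing cells were at 117 to 172 FPKM in the no suffix libraries, 418 to 662 in G2 and 1071 to 1231 in 3dai, the same order of states, and all 10 rose in 3dai in both genotypes. Summed markers of fibro-adipogenic cells were at 998 to 1268 FPKM without suffix, 627 to 750 in G2 and 77.7 to 126 in 3dai. Those of pericytes were at 365 to 957, 350 to 744 and 19.6 to 53.6, those of Schwann cells at 346 to 450, 135 to 147 and 5.86 to 67.5, and those of tenocytes at 238 to 461, 233 to 551 and 36.0 to 85.8. Summed endothelial markers were at 18.1 to 27.5 FPKM without suffix and 0.281 to 2.94 in 3dai. Muscle stem cell markers were at 978 to 1288, 1001 to 1148 and 692 to 775 FPKM. The sums hold genes of opposite direction. In 3dai against no suffix 1 of 8 tenocyte markers was called higher and 7 lower in each genotype. Of 9 stem cell markers 1 was called higher and 5 lower in each genotype. The fibro-adipogenic sum without suffix was mostly Dcn, Dpt, Col3a1 and Col1a1. Pdgfra was at 0.296 to 1.00 FPKM without suffix and 0 to 1.21 in 3dai, and Ly6a at 0 to 2.79 and 0 to 6.60. The endothelial sum without suffix was mostly Tek (12.4 to 18.9 FPKM) and Cdh5 (4.23 to 7.52). Pecam1 was at 0 to 2.09 FPKM there and at 0 in every 3dai library. Scx, a tendon transcription factor, was at 2.25 to 9.01 FPKM without suffix and 26.05 to 70.4 in 3dai. Calcr, a receptor of quiescent stem cells, was at 30.6 to 72.2 and 0 to 0.829 FPKM, and Itga7, the integrin of the sort, at 81.1 to 92.3 and 181 to 226. The part of any of these in the mitoribosome differences was not tested.

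Mature muscle fibres are rich in mitochondria. Their 10 summed markers were at 30.5 to 108 FPKM without suffix, 43.6 to 102 in 3dai and 497 to 1603 in G2. The ranges of 3dai and no suffix thus overlapped, whereas every G2 library was above every other library, and their part in the G2 differences was not tested.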

How the data were processed

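RNA sequencing of sorted muscle cells gave 16 libraries, placed in 6 groups from the labels. The authors deposited 1 table of FPKM per library, with 1 row for each gene symbol. Per the submitters' processing notes STAR, Cufflinks and Cuffdiff were run with mm10. Per the labels' protocols the library kit was NEBNext Ultra II Directional. The sources used here give no tool versions and no handling of strand or of reads that map to several places, so related genes may share reads. Depth is unknown.

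The deposited FPKM were transformed to log2(FPKM + 1). Genes reaching 1 FPKM in at least 2 libraries entered (12954). The 6 groups shared 1 linear model in limma 3.58.1 (R 4.3.3), with the prior variance following the mean level. Calls used limma's moderated test with Benjamini-Hochberg adjustment across all genes and a limit of 0.05. The interaction subtracts the genotype difference without suffix from that in 3dai or in G2. Errors are standard errors of the model. The model was tested on simulated data in which 200 genes were changed.

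The genes and lists were chosen with earlier results of these data known, and support nothing by their choice. Values are given for the 3 highest and 3 lowest genes, for the 4 largest called rises and falls of each comparison (3 where none was called, 2 for an interaction), for genes against the majority in 3dai or G2, for Mrps18a, Mrps18b, Mrps18c, Mrpl12, Mrpl41, Mrps30, Mrps36, Mrps12 and Mrpl3, and for the 2 largest called changes of each machinery list. Mrps11 and the further values of Mrpl46 and Mrpl48 were chosen after their values were seen, as were the YY1 matches shown. The gene 2410015M20Rik, planned as a mitoribosome protein, was left out because it codes for a subunit of another complex.

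Tried instead of these settings were a pseudocount of 0.1, other limits on low values (none, or a mean of at least 5 FPKM), quantile normalization, median-of-ratios scaling, array weights, a block for the replicate number, a model restricted to the groups of a comparison, and every library left out once. Taking Mir6236 out of each total and leaving out p53KO_3dai replicates 2 and 3 or the no suffix libraries in which a gene is listed at 0 were added after seeing the data.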

Additional observations from a re-analysis of the deposited data

How the results depend on the processing

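Between the genotypes and in the interactions 0 genes were called under every alternative run. In 3dai against no suffix the counts were 61 to 67 in p53 WT and 64 to 68 in p53 KO with each library left out, with median differences of 1.74 to 2.07 and 1.76 to 2.02. Scaling moved the median of all genes: in p53WT_3dai against p53WT from 0.23 to 0.05 with quantile normalization and -0.06 with median-of-ratios scaling, and in p53WT_G2 against p53WT from 0.33 to -0.05 and 0. The median of the mitoribosome genes there became 1.51 and 1.47, and 0.68 and 0.64, so relative to all genes it was 1.64, 1.47 and 1.54 in 3dai and 0.71, 0.73 and 0.64 in G2. In p53KO_3dai against p53KO it was 1.63 and 1.57 under these scalings and 2.07 with a pseudocount of 0.1, and in p53KO_G2 against p53KO 0.92 and 0.89. The cause of the differences below was not tested. Where 1 library of a group is left, it is assumed to vary as the other groups do. G2 counts against no suffix were 25, 24 and 24 in p53 WT (quantile, median-of-ratios, only the groups compared) and 31 and 28 in p53 KO (median-of-ratios, only the groups compared). G2 against 3dai gave 40 in p53 WT with array weights, 33 with only the groups compared, and 1 in p53 KO without p53KO_3dai replicates 2 and 3. With each library left out, the G2 counts against no suffix were 23 to 41 in p53 WT (medians 0.88 to 1.10) and 22 to 48 in p53 KO (1.12 to 1.49), and against 3dai 6 to 15 (-0.83 to -0.69) and 5 to 16 (-0.82 to -0.40). Genotype medians ran from -0.23 to 0.12 without suffix, -0.04 to 0.06 in 3dai and -0.011 to 0.38 in G2, and interaction medians from -0.06 to 0.17 and 0.0095 to 0.40.

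None of the named differences that changed sign was called in the reported fit. With array weights Mrpl12 between genotypes without suffix was 0.022, Mrpl48 and Mrps18a in p53WT_G2 against p53WT were 0.010 and 0.035, and the Mrps18c interaction with 3dai was -0.087. Mrpl48 in p53KO_3dai against p53KO was 0.072 with Mir6236 taken out, and Mrps36 there was -0.45 without p53KO_3dai replicates 2 and 3. With each library left out, Mrpl12 between genotypes without suffix ran from -0.93 to 0.025 (without p53KO replicate 3), Mrpl36 in p53WT_G2 against p53WT from -0.61 to 0.19 (without p53WT_G2 replicate 1), and Mrpl48 and Mrps18a there from -0.12 to 0.13 and -0.35 to 0.25 (the highest without p53WT replicate 2 and p53WT_G2 replicate 2; 0.24 for Mrps18a without p53WT replicate 2). Mrpl48 in p53KO_3dai against p53KO ran from -0.18 to 0.16 (0.14 without p53KO_3dai replicate 1), the Mrps18c interaction from -0.18 (without p53KO replicate 3) to 1.50, and Mrps6 in p53WT_3dai against p53WT from -0.30 to 0.043 (0.03 without p53WT_3dai replicate 2). Without p53KO_G2 replicate 1 and 2 Mrps33 was -1.60 and 0.98 against p53KO and -1.77 and 0.81 against p53WT_G2. Mrpl14, Mrpl15, Mrpl36, Mrpl41, Mrps18a, Mrps18b, Mrps27 and Mrps30 lost a call under at least 1 alternative other than a left-out library.

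With the replicate number as a replicate block the counts were 68 and 69 in 3dai and 38 and 48 in G2 against no suffix, and 19 and 14 in G2 against 3dai. Deviations of same-numbered libraries had correlations of -0.159 to 0.127 over 36 pairs, 1 above 0.1. Those of differently numbered libraries ran from -0.198 to 0.227 over 70 pairs, 3 above 0.1. Deviations within groups of 2 and 3 are tied to each other, so this cannot exclude a pairing or a shared batch. The FPKM give no depth, groups of 2 and 3 limit what can be called, and genes listed at 0 have uncertain levels.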
